A study of Homo sapiens with 6 samples.

Results

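Collagens are triple-helical proteins of the extracellular matrix, and each chain is encoded by a gene of its own named COL, the collagen type, A and the chain number. The 42 protein-coding collagen genes of the autosomes in GENCODE 44 on hg19, covering 28 collagen types, were examined among 19229 protein-coding autosomal genes, for open chromatin in cells of the human esophagus. A peak was assigned to a collagen gene when it overlapped the gene body extended by 10 kb to each side, referred to here as the window of the gene. The 2 collagen genes on chromosome X were left out by this rule.

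ATAC-seq, in which the Tn5 transposase cuts accessible DNA, was performed on 3 untreated cell lines with 2 libraries per line. HET-1A (libraries 1 and 2) is a non-cancerous esophageal epithelial line immortalized with the SV40 large T antigen. KYSE-30 (libraries 4 and 6) and KYSE-150 (libraries 7 and 8) are esophageal squamous cell carcinoma lines. HET-1A was grown in BEBM with its additives and both KYSE lines in RPMI/F12 with serum, so line and medium cannot be told apart. Every line stands for a single source, and separate cultures for the libraries of a line are not stated in the sources used here.

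Fibrillar collagens (types I, II, III, V, XI, XXIV and XXVII) assemble into the fibrils that carry tension. FACIT collagens sit on the surface of such fibrils, type IV forms the network of basement membranes, and type VI makes beaded filaments. Type VII forms the anchoring fibrils that hold a stratified epithelium to its underlying tissue, and type XVII is a transmembrane protein of hemidesmosomes. Most fibrillar collagen is made by fibroblasts and related mesenchymal cells, whereas epithelial cells make chains of the basement membrane zone. Promoters of active genes are usually accessible, and further accessible sites in introns can hold enhancers.

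The peak lists were very unequal in length, with 168 peaks for HET-1A library 1 but 15979 for library 2, 1255 for KYSE-30 library 4 but 11671 for library 6, and 547 and 259 for KYSE-150 libraries 7 and 8. Those of HET-1A library 2 and KYSE-30 library 6 are called the long lists of these lines below, and the other 4 the short lists. Only called peaks were at hand, so a gene without a peak may still have signal under the calling threshold. Among 10 epithelial markers, 7 had a peak in the window in the long HET-1A list (CDH1, EPCAM, KRT18, KRT19, KRT8, PERP and TP63) and 3 in the long KYSE-30 list (EPCAM, KRT8 and TP63), with KRT8 also in KYSE-30 library 4, while the basal keratin genes KRT5 and KRT14 had none in any library. Among 10 mesenchymal markers, 2 had a peak in the long HET-1A list (FN1 and THY1) and 4 in the long KYSE-30 list (PDGFRB, SPARC, TWIST1 and VIM). Of all protein-coding autosomal genes, 52.9% had such a peak in the long HET-1A list and 42.6% in the long KYSE-30 list. Promoter peaks, as defined below, were at 4 and 2 of the epithelial markers in these lists. They were at 2 and 1 of the mesenchymal markers, beside 36.6% and 29.4% of all genes. In both KYSE-150 libraries 0 of these 20 markers had a peak, so these lists neither bear out nor contradict the labelled cell type. In the long KYSE-30 list the window shares of epithelial and mesenchymal markers, 30.0% and 40.0%, both lay below that of all genes. That list therefore does not bear out the label either.

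Sequences of 200 bp around the summit are shown for the peaks on which the results turn, from the hg19 plus strand. The opening pair come from collagen XXVIII, the site with the strongest peak, and from the internal site of COL12A1. The next pair lie at the gene starts of COL12A1 and COL27A1 and were chosen after their values were seen. The last 3 are intron peaks of COL24A1, COL4A2 and COL21A1. Capitals mark the AP-1 core TGACTCA or its reverse complement TGAGTCA, and the GC box GGGCGG.
COL28A1, KYSE-30 library 6, chr7:7478623-7478822: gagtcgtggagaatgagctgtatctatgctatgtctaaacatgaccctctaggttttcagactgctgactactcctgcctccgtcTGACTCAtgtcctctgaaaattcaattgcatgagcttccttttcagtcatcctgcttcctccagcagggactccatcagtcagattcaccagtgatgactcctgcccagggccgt
COL12A1, KYSE-30 library 6, chr6:75808547-75808746: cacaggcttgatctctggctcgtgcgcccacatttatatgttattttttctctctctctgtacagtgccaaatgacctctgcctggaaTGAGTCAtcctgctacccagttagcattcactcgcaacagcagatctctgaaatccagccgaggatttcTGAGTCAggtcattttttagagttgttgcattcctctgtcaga
COL12A1, HET-1A library 2, chr6:75915791-75915990: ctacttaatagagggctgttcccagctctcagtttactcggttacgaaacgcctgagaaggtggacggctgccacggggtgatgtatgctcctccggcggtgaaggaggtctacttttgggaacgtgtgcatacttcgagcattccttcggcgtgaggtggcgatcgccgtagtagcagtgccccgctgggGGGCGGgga
COL27A1, HET-1A library 2, chr9:116917591-116917790: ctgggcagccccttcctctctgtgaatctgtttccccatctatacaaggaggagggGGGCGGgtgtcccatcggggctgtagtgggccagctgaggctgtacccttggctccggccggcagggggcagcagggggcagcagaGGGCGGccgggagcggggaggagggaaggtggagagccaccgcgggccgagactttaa
COL24A1, KYSE-30 library 6, chr1:86315926-86316125: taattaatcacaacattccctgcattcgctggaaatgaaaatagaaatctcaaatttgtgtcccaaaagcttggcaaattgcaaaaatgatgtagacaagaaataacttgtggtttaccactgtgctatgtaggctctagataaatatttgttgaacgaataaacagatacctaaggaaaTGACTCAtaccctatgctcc
COL4A2, KYSE-30 library 6, chr13:111000194-111000393: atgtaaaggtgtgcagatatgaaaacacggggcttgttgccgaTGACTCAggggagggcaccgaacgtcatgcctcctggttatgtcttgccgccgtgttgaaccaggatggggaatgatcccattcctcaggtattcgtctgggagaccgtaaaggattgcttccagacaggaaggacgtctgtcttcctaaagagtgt
COL21A1, HET-1A library 2, chr6:56085048-56085247: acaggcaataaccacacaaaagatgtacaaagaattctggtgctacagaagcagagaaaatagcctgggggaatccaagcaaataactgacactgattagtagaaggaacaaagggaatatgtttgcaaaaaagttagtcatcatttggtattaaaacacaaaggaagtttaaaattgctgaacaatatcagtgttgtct

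In all, 54 peaks fell in the windows of 28 of the 42 collagen genes, and 14 genes had no peak in any library. The long HET-1A list held 33 of these peaks, the long KYSE-30 list held 20 and HET-1A library 1 held 1. KYSE-30 library 4 and both KYSE-150 libraries held 0. In the long HET-1A list, 20 genes (47.6%, Wilson 95% interval 33.4 to 62.3) had a peak in the window, against 52.9% of all protein-coding autosomal genes. In the long KYSE-30 list the count was 16 genes (38.1%, 25.0 to 53.2) against 42.6%. Both shares were near the share over all genes, although collagen genes are long, with a median of 133 kb against 27.6 kb.

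The short lists gave few or no collagen genes. In HET-1A library 1 the count was 1 gene (2.38%, 0.422 to 12.3) against 0.489% of all genes. The counts of 0 of 42 allow a share of up to 7.14% by 3 counts, which lies above the share over all genes of 6.83% for KYSE-30 library 4 and of 3.03% and 0.936% for KYSE-150 libraries 7 and 8. By the count of genes, a share below that of all genes could therefore not be seen in these lists. Intervals and such limits cover counting error only, and neighbouring genes are not independent of each other.

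**Figure D1:**
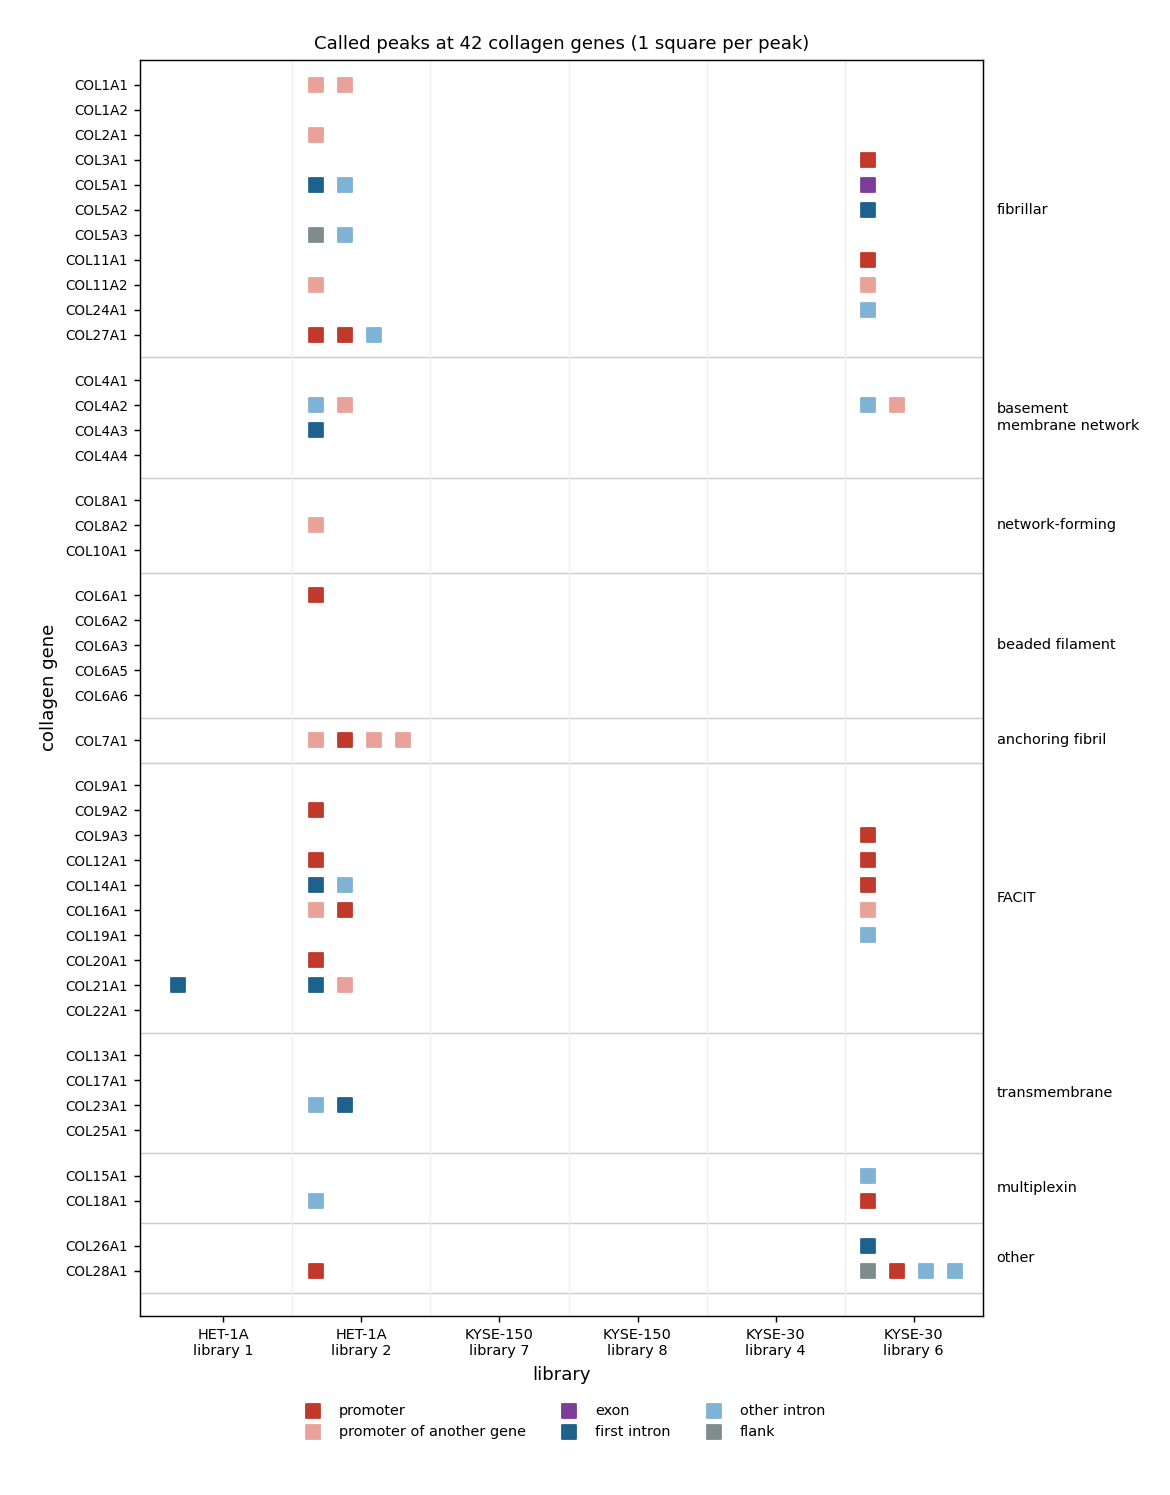
Called peaks at each of the 42 collagen genes (rows, by class) in the 6 libraries (columns), 1 square per peak, coloured by its place; squares in a cell follow the order along the chromosome. Of the 54 squares, 33 are in the long HET-1A list, 20 in the long KYSE-30 list and 1 in HET-1A library 1.

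Per length, collagen windows held fewer peaks than the windows of all genes in both long lists. The long HET-1A list had 4.76 peaks per Mb of collagen windows and 7.94 per Mb of the windows of all protein-coding autosomal genes. The long KYSE-30 list had 2.89 and 5.74 peaks per Mb. Collagen genes are longer than most (median 133 kb against 27.6 kb). Of all peaks, 53.1% in the long HET-1A list and 55.1% in the long KYSE-30 list lay at promoters. The part of gene length in the lower density was not tested. In KYSE-30 library 4 there were 0 collagen peaks against 0.629 per Mb over all genes, and the limit of 3 counts, 0.433 per Mb, lies below that value. For KYSE-150 libraries 7 and 8 the values were 0 against 0.265 and 0.0961 per Mb, within the limit, and in HET-1A library 1 the single collagen peak gave 0.144 against 0.0588 per Mb. The 28 genes with a peak had a median length of 125 kb and the 14 without had 149 kb, so the genes with peaks were not the longer ones.

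A promoter was taken as 3 kb to each side of any annotated start site of the gene, internal start sites included. By this measure 8 collagen genes (19.0%, 9.98 to 33.3) had a promoter peak in the long HET-1A list, against 36.6% of all genes. In the long KYSE-30 list, 7 genes (16.7%, 8.32 to 30.6) had one, against 29.4%. The interval in the long HET-1A list ends below the share over all genes and the one in the long KYSE-30 list includes it. With narrower definitions both ended below it. For a promoter of 1 kb the long HET-1A list gave 6 genes (6.72 to 27.8%, against 32.7% of all genes) and the long KYSE-30 list 1 (0.422 to 12.3%, against 27.0%). The other libraries gave 0 of 42 collagen genes, beside shares over all genes of 0.0936% for HET-1A library 1, 4.06% for KYSE-30 library 4, and 1.88% and 0.380% for KYSE-150 libraries 7 and 8.

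**Figure D2:**
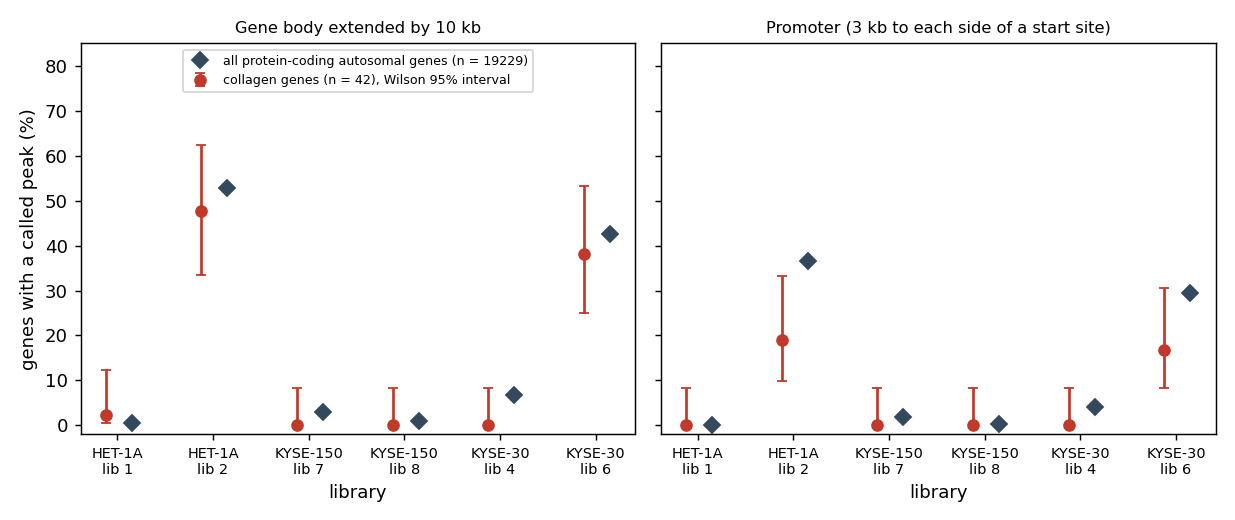
Share of collagen genes (circles, n = 42, with Wilson 95% intervals) and of all protein-coding autosomal genes (diamonds, n = 19229) with a called peak in each library, for the window (left) and the promoter (right). Window shares of collagen genes in the long lists were 47.6% and 38.1%, and promoter shares 19.0% and 16.7%.

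Few promoter peaks lay at the start of the gene itself. Of 16 promoter peaks at 13 genes, 6 had a summit within 3 kb of the gene start, at 5 genes, and 9 had a summit more than 10 kb downstream of it, at internal start sites. Counted at the gene start only, 4 collagen genes had a promoter peak in the long HET-1A list (COL6A1, COL7A1, COL12A1 and COL27A1), beside 30.9% of all genes, and 1 in the long KYSE-30 list (COL18A1), beside 24.9%. No collagen gene had a peak at its own start in both, against 15.8% of all genes.

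COL12A1 (ENSG00000111799, chr6:75794042-75915983, minus strand), which encodes a FACIT collagen of dense connective tissue, had its peak at the gene start in HET-1A library 2, with the summit 0.092 kb downstream. There 28 tags stood over a local background of 4.56 tags, a fold enrichment of 5.22 (tags over local background with 1 added to each, q-value 1.23e-10). Of the 9 collagen promoter peaks in that library it had the highest fold enrichment. The COL12A1 peak of KYSE-30 library 6 was a different site, 107 kb further along the gene and 2.98 kb from an internal start, with 17 tags and a fold enrichment of 5.84. As printed above, the sequence at the gene start holds a GC box and no AP-1 core, and the internal one holds 2 AP-1 cores and no GC box.

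COL27A1, a fibrillar collagen of cartilage, had a pair of promoter peaks in HET-1A library 2. They lay 0.126 kb upstream of the gene start (34 tags, fold enrichment 3.83, q-value 1.15e-08) and 1.21 kb downstream (24 tags, 2.77). Only the former holds the GC box, at 2 places. COL7A1 had a peak 0.565 kb upstream of its start in HET-1A library 2, with 35 tags and a fold enrichment of 3.40. COL6A1, a chain of the beaded filaments, had one 2.58 kb upstream with 24 tags and a fold enrichment of 3.03. COL18A1, the multiplexin from which endostatin is released, was the gene with a peak near its start in KYSE-30 library 6, 1.19 kb upstream, with 12 tags and a fold enrichment of 3.82. All 5 of these genes lacked a peak at the start in every other library.

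The internal promoter peaks fell at start sites of shorter annotated transcripts. In the long KYSE-30 list these were at COL28A1, COL12A1, COL14A1 (287 kb from the gene start, fold enrichment 7.24), COL11A1 (229 kb, 5.78) and COL3A1 (27.9 kb, 6.32). COL3A1 encodes the fibrillar type III chain of skin and vessels and COL11A1 a minor fibrillar chain. COL9A3, a chain of cartilage collagen IX, had a peak 3.44 kb from the gene start with a fold enrichment of 3.79. In the long HET-1A list the internal sites were at COL28A1, COL16A1 (34.4 kb, fold enrichment 3.10), COL20A1 (27.3 kb, 2.46) and COL9A2 (12.6 kb, 4.05), the last 3 being FACIT genes. Where only start sites of protein-coding transcripts were counted, the collagen genes with a promoter peak came to 6 in the long HET-1A list, against 33.8% of all genes, and to 4 in the long KYSE-30 list (3.77 to 22.1%), against 27.5%.

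Over all libraries 66.7% of collagen genes had a peak in the window, against 66.2% of all genes, and 31.0% a promoter peak, against 47.6%. By class, 10 of 11 fibrillar genes had a peak in the window in some library, the exception being COL1A2, and 3 had a promoter peak (COL3A1, COL11A1 and COL27A1). Of the FACIT genes 8 of 10 had a peak and 6 a promoter peak. The basement membrane type IV genes had peaks at 2 of 4 (COL4A2 and COL4A3) and the beaded filament genes at 1 of 5 (COL6A1). Transmembrane collagens had peaks at 1 of 4 (COL23A1), network-forming collagens at 1 of 3 (COL8A2) and both multiplexins had them. All peaks of the fibrillar genes COL1A1, COL2A1 and COL11A2 and of COL8A2 lay at promoters of other genes. These classes hold few genes and their counts were not tested against each other.

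Type I collagen, the main fibrillar collagen of skin and bone, had no promoter peak in any library. COL1A1 had a pair of peaks in the long HET-1A list (34 tags, fold enrichment 3.03, and 32 tags, 2.74), both close to its 3′ end and within 3 kb of the start of the histone pseudogene H1-9P. The peak nearest to the start of COL1A2 was 93.6 kb away in both long lists. COL17A1, the hemidesmosome collagen, had none within its window, and the nearest peaks were 36.1 kb from its start in the long HET-1A list and 32.0 kb in the long KYSE-30 list. The other genes without a peak were COL4A1, COL4A4, COL6A2, COL6A3, COL6A5, COL6A6, COL8A1, COL9A1, COL10A1, COL13A1, COL22A1 and COL25A1. COL4A1 and COL4A2 are neighbours transcribed away from a shared start region, which had no peak. The nearest one, in the COL4A2 gene, was 12.7 kb from the COL4A1 start, just outside that gene's window.

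Introns held 21 peaks at 15 genes, 8 of them in an intron that follows the opening exon of a transcript and 13 in later introns. The long HET-1A list had 12 intron peaks at 9 genes and the long KYSE-30 list had 8 at 7 genes. These were 36.4% and 40.0% of the collagen peaks, against 18.1% and 18.5% of all pairs of a gene and a peak in its window. Collagen genes are longer than most, and the part of length in this was not tested. Among as many HET-1A peaks as the long KYSE-30 list holds, 4 of the 12 remained. The share over all genes was not counted for that shortened list, so this count shows nothing particular to collagen genes. COL4A2 was the 1 gene with intron peaks in both long lists, and these were separate sites, 14.4 kb from the gene start in the long HET-1A list (17 tags, fold enrichment 3.70) and 42.1 kb in the long KYSE-30 list (30 tags, 7.14). Of the peaks within windows, 1 lay in an exon, in COL5A1 in the long KYSE-30 list, and 2 lay in flanks.

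The intron peaks of the long KYSE-30 list with the highest fold enrichments were in COL24A1, COL28A1, COL4A2 and COL19A1. COL24A1, a fibrillar collagen gene, had 20 tags over 1.49 and a fold enrichment of 8.44 at 307 kb from its start, and 15.2% of the peaks of that list had a lower q-value. COL28A1 had 24 tags and 7.67 at 43.1 kb, and COL19A1, a FACIT gene, 15 tags and 6.43 at 51.6 kb. All 4 hold an AP-1 core within the 200 bp around the summit. The remaining intron peaks of this library, at COL28A1, COL5A2, COL15A1 and COL26A1, had fold enrichments between 4.34 and 4.87.

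In the long HET-1A list the intron peak with the highest fold enrichment was in the FACIT gene COL21A1, with 24 tags over 3.34 and a fold enrichment of 5.76. No AP-1 core, GC box or CCAAT lies in its 200 bp. The others were at COL5A1 (42 tags, 4.14 and 24 tags, 2.56), COL27A1, COL4A3, COL4A2, COL14A1, COL23A1, COL5A3 and COL18A1, with fold enrichments down to 2.48. COL21A1 was also the gene with the single collagen peak of HET-1A library 1, 54.9 kb from the gene start with 11 tags, a fold enrichment of 3.92 and a q-value of 0.0209. It was 1 of 42 collagen genes with a peak in both HET-1A libraries, against 0.369% of all genes, but the sites differed, since the peaks of the long HET-1A list lay 64.4 and 174 kb from the gene start. For both KYSE-30 libraries the count was 0 of 42 against 5.52% of all genes, and for both KYSE-150 libraries 0 against 0.146%. Both shares lie within the limit of 7.14% by 3 counts.

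**Figure D3:**
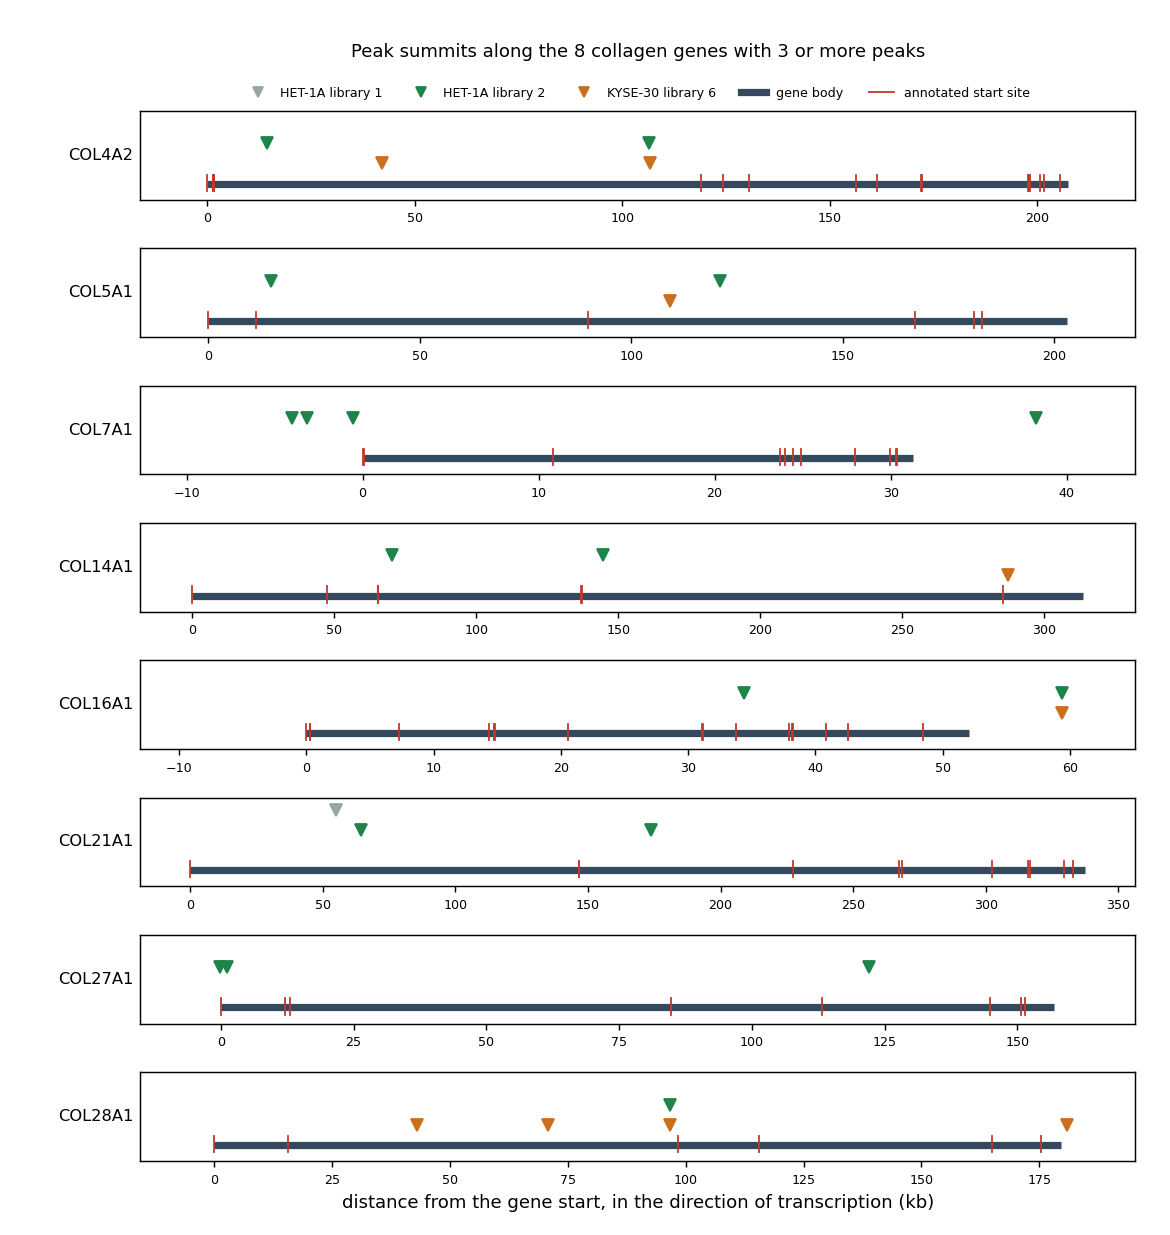
Summits of called peaks (triangles, coloured by library) along the 8 collagen genes with 3 or more peaks, drawn against the distance from the gene start in kb, each gene on its own scale. Bars are gene bodies and vertical ticks annotated start sites; the triangles of the long HET-1A list and the long KYSE-30 list coincide at 3 sites, in COL4A2, COL16A1 and COL28A1.

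Peaks at promoters of other genes made up 14 of the 54 and reached the windows of 8 collagen genes, 4 of which had no other peak. COL7A1 had 4 peaks, all in the long HET-1A list, of which 3 were at promoters of its neighbours PFKFB4 (46 tags, fold enrichment 5.40) and UQCRC1 (36 tags, 3.58, and 31 tags, 3.05), a regulator of glycolysis and a subunit of respiratory complex III. Peaks in the COL11A2 window, found in both long lists, lay at RXRB and SLC39A7. These did not overlap between the lists and were counted below as separate regions. Those of COL2A1 and COL8A2 lay at TMEM106C and at ADPRS and TEKT2. With such peaks left out, 16 collagen genes (38.1%) still had a peak in the long HET-1A list, against 45.8% of all genes, and 14 (33.3%) in the long KYSE-30 list, against 36.4%.

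The long lists shared 8 collagen genes with a peak in the window (19.0% of 42, 9.98 to 33.3), an interval that includes the 30.1% of all genes. They shared 2 with a promoter peak (4.76%, 1.32 to 15.8), COL12A1 and COL28A1, against 19.0% of all genes. After merging overlapping peaks the 54 peaks made 51 regions, of which 48 were in 1 library and 3 in more than 1 line (5.88%, 2.02 to 15.9), against 22.9% of the regions merged in the same way over the windows of all genes. No region was shared by both libraries of a line, against 3.55% over all genes. By 3 counts, 0 of 51 regions allow a share of up to 5.88%, so a share below that of all genes could not be seen. Of the 3 shared regions, one was the PEF1 promoter downstream of COL16A1 (fold enrichment 5.00 in the long HET-1A list and 6.13 in the long KYSE-30 list), and another lay in COL4A2 beside an annotated snoU13 copy (4.48 and 7.19).

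The third was the internal site of COL28A1 (ENSG00000215018, chr7:7395834-7575504, minus strand), which encodes collagen XXVIII, a collagen with von Willebrand factor A domains known from basement membranes around peripheral nerve. It lay 96.8 kb from the gene start and 1.66 kb upstream of an internal start site. In the long HET-1A list it had 15 tags over a background of 3.34, a fold enrichment of 3.68 and a q-value of 0.000561. In the long KYSE-30 list it had 40 tags over 2.50, a fold enrichment of 11.7 and a q-value of 3.8e-30. That was the highest fold enrichment of any collagen peak, and 1.12% of the peaks of that list had a lower q-value. No peak was called there in the other 4 libraries. COL28A1 had 5 peaks, more than any other collagen gene, and 4 of them were in the long KYSE-30 list.

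**Figure D4:**
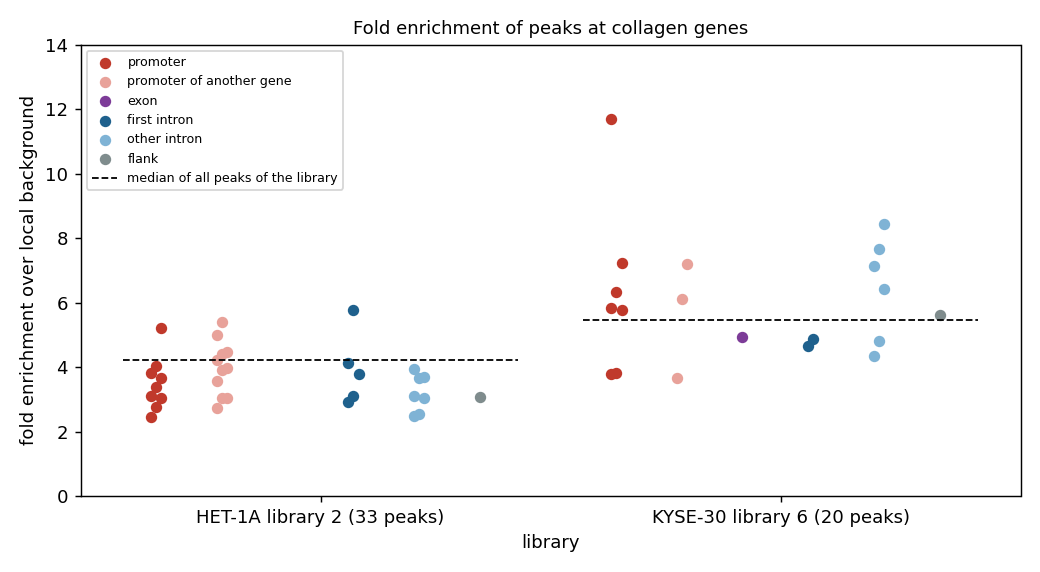
Fold enrichment over local background of each collagen peak in the long lists, coloured by its place, with the median of all peaks of the library as a dashed line (4.22 in the long HET-1A list and 5.47 in the long KYSE-30 list). The COL28A1 promoter peak of the long KYSE-30 list stands highest at 11.7.

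Fold enrichments are relative to each library's own background and are read within a list. In the long HET-1A list the 33 collagen peaks ranged from 2.46 to 5.76 with a median of 3.67, against 4.22 over all peaks of the library, and 6 of them exceeded that value. In the long KYSE-30 list the 20 collagen peaks ranged from 3.66 to 11.7 with a median of 5.81 against 5.47, and 12 exceeded it. The collagen peaks held 15 to 47 tags in the long HET-1A list and 11 to 40 in the long KYSE-30 list. The local background relative to the lowest in the library was at most 2.24 at collagen peaks in the long KYSE-30 list. It was at most 3.44 in the long HET-1A list apart from COL20A1, where it was 5.53.

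AP-1 is a dimer of FOS and JUN family proteins that binds TGACTCA. In the long KYSE-30 list, 10 of 20 collagen peaks (Wilson 95% interval 29.9 to 70.1%) held this core within the 200 bp around the summit, against 26.1% of all peaks of the library. In the long HET-1A list the count was 6 of 33 (18.2%, 8.61 to 34.4) against 21.7%. Away from all promoters, 6 of 10 collagen peaks in the long KYSE-30 list held it against 42.7%, and 1 of 13 in the long HET-1A list against 32.2%. At promoters the counts were 4 of 10 against 12.6% in the long KYSE-30 list and 5 of 20 against 12.4% in the long HET-1A list. A match of letters is a description and not a site of binding, and no test was run on these shares.

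**Figure D5:**
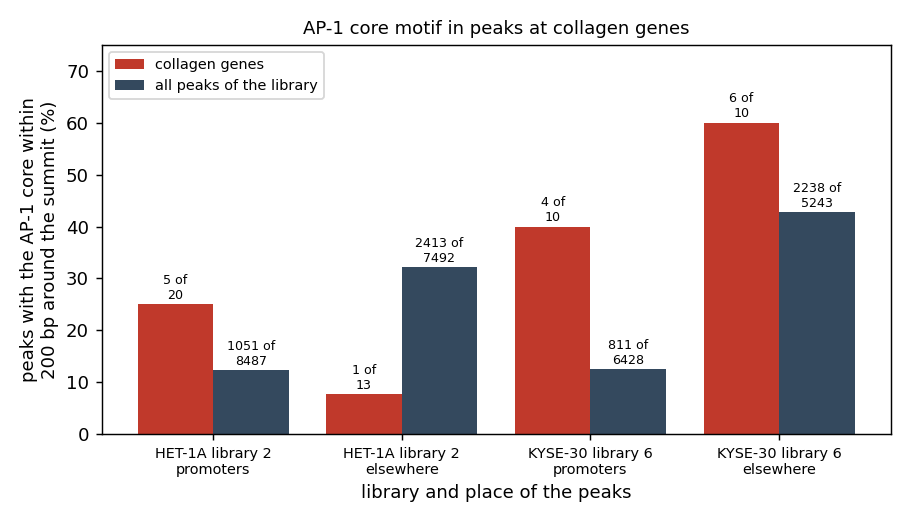
Share of peaks with the AP-1 core within 200 bp around the summit, for collagen peaks and for all peaks of the same library, at promoters of any gene and elsewhere; the counts stand above the bars. Elsewhere, 6 of 10 collagen peaks in the long KYSE-30 list and 1 of 13 in the long HET-1A list held it.

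The GC box GGGCGG and CCAAT, elements of many promoters, were searched on both strands in the same 200 bp and chosen after the data were seen. At promoters of any gene the GC box was in 9 of 20 collagen peaks in the long HET-1A list (45.0%, against 48.2% of all promoter peaks) and in 3 of 10 in the long KYSE-30 list (30.0% against 45.7%). Away from promoters it was in 0 of 13 and 0 of 10, where only 7.70% and 6.94% of all such peaks held it. CCAAT was in 21.2% of collagen peaks against 27.9% of all peaks in the long HET-1A list and in 15.0% against 29.1% in the long KYSE-30 list. The median GC content was 56.5% against 55.5% in the former and 47.8% against 54.5% in the latter.

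Genes that act on collagen chains were counted in the same way. Of 32 genes for collagen modification, folding, secretion and crosslinking, 12 (37.5%) had a promoter peak in the long HET-1A list and 10 (31.2%) in the long KYSE-30 list, near the 36.6% and 29.4% of all genes. MIA3, which helps load procollagen into transport vesicles, had a peak in both (fold enrichment 6.91 with 29 tags, and 9.26 with 34 tags). P4HB, the beta subunit of prolyl 4-hydroxylase, also had one in both (6.66 with 42 tags, and 4.59 with 18 tags), as did P4HA2, P3H1 and FKBP14. The prolyl isomerase gene PPIB and the hydroxylysine galactosyltransferase gene COLGALT1 had one in the long HET-1A list, and P4HA1, LOXL4 and P3H2 in the long KYSE-30 list. Of the 32 genes, 0 had a promoter peak in any of the 4 short lists, where 0.0936% to 4.06% of all genes had one.

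Among 9 collagen receptors, 7 had a peak in the window in the long HET-1A list and 6 in the long KYSE-30 list, and the same 6 (DDR1, DDR2, ITGA1, ITGA2, ITGA10 and ITGB1) were in both. All genes had such peaks at 52.9%, 42.6% and, in both lists, 30.1%. A promoter peak, beside 36.6% and 29.4% of all genes, was found at DDR1, a receptor tyrosine kinase that binds collagen, in the long HET-1A list (fold enrichment 3.76, 23 tags). The other was at ITGA2, the alpha 2 integrin subunit of a collagen receptor, in the long KYSE-30 list (5.06, 17 tags). In the short lists DDR2 had a peak in the window in HET-1A library 1 and ITGA1 in KYSE-30 library 4. With 2 libraries on each side the smallest p an exact two-sided permutation test allows is 0.33, so no collagen gene was tested between lines.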

How the data were processed

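Per the labels and the methods of the study, the authors mapped ATAC-seq reads to hg19 by bowtie2, filtered blacklisted regions, corrected for the Tn5 offset and used fragments under 100 bp only. Their MACS2 calls were made library by library at a q-value of 0.05 with no control. The score in the deposited lists is −log10 q multiplied by 10 and cut to a whole number. The deposited fold enrichment is the ratio of tags at the summit to local background, each plus 1. The deposited p-value and q-value are on the −log10 scale. Tags and local background were recovered here from fold enrichment and Poisson p-value to within 0.001, for at least 99.6% of peaks of each list, and the step was tested on simulated data. The lowest background in a library, from 1.49 to 3.34 tags per 200 bp, stands for the relative depth. It was 3.34 for HET-1A library 2 but 1.49 for KYSE-30 library 6, so the long lists lie at both ends. The short lists lie between, at 1.88, 2.36, 2.80 and 2.64 for libraries 1, 4, 7 and 8. Read totals were not used here.

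Peaks were joined to GENCODE 44 on hg19 by 1 shared bp, each to a single place in the order promoter, promoter of another gene, exon, intron, flank. Members are named with or without a peak. Listed genes are named for promoter peaks, for peaks in the window or, for KRT5 and KRT14, for having none. Sequences are of the plus strand. They come from promoter peaks of genes with them in 2 libraries and intron peaks with the highest fold enrichment, with additions named. The intron peaks of COL28A1 (fold enrichment 7.67) and COL19A1 (6.43) were also chosen in this way, but their sequences are not printed. The members and lists were chosen with earlier results of these data known. Alternatives were a q-value under 0.01, lists of equal length, the summit in place of overlap, other windows and promoter definitions, a peak in either library, each library left out and the whole peak for the motif. Python 3.11.15, pandas 2.3.3, scipy 1.17.1 and pysam 0.24.0 were used.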

Additional observations from a re-analysis of the deposited data

How the results depend on the processing

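Of 106 alternatives, 88 left the count within 1.5 times of the reported value, or the motif share within its interval. Many of these 88 are counts of 0 resting on the short lists that stayed at 0. The number is therefore not a measure of how stable the results of the long lists are. At a q-value under 0.01 the single collagen gene and intron peak of HET-1A library 1 came to 0. With windows extended by 50 kb the genes with a peak came to 32 for HET-1A library 2, to 4 for KYSE-30 library 4 and to 1 for KYSE-150 library 7, beside 70.7%, 13.0% and 6.04% of all genes. The promoter count of KYSE-30 library 6 depended on the definition, with 1 gene for a promoter of 1 kb, 4 for protein-coding transcripts only and 1 for the start of the gene only, where HET-1A library 2 gave 4, while the shares over all genes were 27.0%, 27.5% and 24.9% (30.9% in HET-1A library 2). Intron peaks of KYSE-30 library 6 came to 13 with a promoter of 1 kb, because peaks then moved from promoters to introns. Intron peaks of HET-1A library 2 came to 4 among as many peaks as KYSE-30 library 6 has, with no share over all genes counted. In that shortened list the genes with a promoter peak came to 6, against 31.9% of all genes. Those with a peak in the window came to 14, against 46.1%. Collagen genes that either library of the line would give numbered 20 in HET-1A and 16 in KYSE-30, beside 53% and 44% of all genes. In KYSE-150 they numbered 0, beside 3.82% of all genes, a share within the limit of 7.14% by 3 counts. With 1 library of the line left out these counts ranged from 1 to 20 in HET-1A, beside 0.489% and 52.9% of all genes. In KYSE-30 they ranged from 0 to 16, beside 6.83% and 42.6%. Regions in more than 1 line came to 0 when both libraries of a line were needed, and ranged from 0 to 3 with each library left out, being 0 without HET-1A library 2 or KYSE-30 library 6. No paired analysis was possible because the libraries of different lines share no number. In HET-1A and KYSE-30, 53 of the 54 collagen peaks thus rest on 1 library of each line.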
